A study of Mus musculus with 9 samples.

Results

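The genes described here are transcription factors and related DNA-binding proteins outside the C2H2 zinc finger families, in sorted skeletal stem and stromal cells of the mouse. The members were the protein-coding genes of the FPKM table to which the table itself assigns a transcription factor family, without the families whose name holds C2H2, the Hox genes, Atf3 and Spi1. This gave 129 of the 8329 genes in the table, from 40 families, of which 23 had a single member. The largest were Homeobox with 35 members, bHLH with 14, HMG and ZBTB with 8 each, Fork with 7 and ETS with 5. The label covers the set with exceptions. Kdm5a and Kdm5d, listed as ARID, remove methyl groups from histones, Nsd2 adds them, Dnajc2 is a ribosome-associated chaperone, and Id3 and Id4 are bHLH proteins without the basic region that contacts DNA. The ZBTB proteins bind DNA through C2H2-type fingers but stand under ZBTB in the table.

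RNA was compared between 3 groups of 3 libraries. BM-MSCs (bone marrow mesenchymal stem cells) and P-SSCs (periosteal skeletal stem cells) came from mice at steady state, on day 0, and Graft P-SSCs from the periosteum of femurs taken on day 3 after bone transplantation. All libraries came from WT C57BL/6J mice, young adults by the study's methods. By these methods each group was sorted as CD45-Ter119-CD31-CD51+CD200+ cells, and some libraries combined the RNA of more than 1 mouse, which the labels show for replicate 2 of the BM-MSCs and of the P-SSCs. The labels give the graft cells no mark of donor or host origin, so cells of the host inside the gate cannot be told apart. Expression is given as FPKM, in which the fragments on a gene are divided by its length and by the size of the library. This puts genes of unequal length on 1 scale, while comparisons between libraries also rest on how the libraries are scaled. Library totals ranged from 16890241 to 21315438 fragments. Periostin, made by periosteal cells, was at 90.6 to 125 FPKM in BM-MSCs, 391 to 476 FPKM in P-SSCs and 782 to 879 FPKM in Graft P-SSCs. The genes of the sorted surface proteins were not analysed here. The labels do not say whether any libraries of different groups came from the same mice, and p-values measure the spread between these libraries.

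Transcription factors read regulatory DNA through a fold that gives each family its name. Homeobox proteins lay out the body and its skeleton, bHLH proteins pair up to drive or, as ID proteins, to block differentiation, E2F proteins with their DP partners and the forkhead protein FOXM1 switch on genes of the cell cycle, RUNX and ETS proteins act in blood, vessels and bone, and SMAD proteins carry BMP and TGF-beta signals to the nucleus. In bone, DLX proteins act in osteoblast formation, while the AP-1 and NR4A proteins are made within a short time of many stimuli.

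The promoters of the E2F family are shown because its members parted between the groups, and that of Runx1 because it differed in all 3 comparisons. Each is the 250 bases before a RefSeq start (GRCm38.p6), read 5′ to 3′ on the strand of the gene and free of exons annotated in GENCODE M21. Capitals mark an E2F site (TTTGGCGC or its second form TTTCCCGC), the canonical E-box CACGTG or the CCAAT box, each searched on both strands.
E2f7 (chr10:110745189-110745438, + strand): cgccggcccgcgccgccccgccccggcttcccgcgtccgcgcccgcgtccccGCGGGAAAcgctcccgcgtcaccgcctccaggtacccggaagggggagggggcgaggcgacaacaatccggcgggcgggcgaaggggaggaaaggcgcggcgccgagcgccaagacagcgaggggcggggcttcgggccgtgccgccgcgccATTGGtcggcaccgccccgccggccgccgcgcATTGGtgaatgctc
Tfdp1 (chr8:13338501-13338750, + strand): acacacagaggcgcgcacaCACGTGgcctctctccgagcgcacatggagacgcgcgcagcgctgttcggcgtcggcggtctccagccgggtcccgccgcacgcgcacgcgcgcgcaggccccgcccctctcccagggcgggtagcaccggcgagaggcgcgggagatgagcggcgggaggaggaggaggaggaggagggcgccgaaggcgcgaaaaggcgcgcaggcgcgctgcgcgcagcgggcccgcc
E2f2 (chr4:136172024-136172273, + strand): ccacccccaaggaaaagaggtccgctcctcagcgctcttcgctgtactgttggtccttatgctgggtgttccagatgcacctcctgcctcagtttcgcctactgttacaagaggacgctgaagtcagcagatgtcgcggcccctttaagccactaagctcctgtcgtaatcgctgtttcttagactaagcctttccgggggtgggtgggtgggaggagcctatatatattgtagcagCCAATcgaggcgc
Runx1 (chr16:92697330-92697579, - strand): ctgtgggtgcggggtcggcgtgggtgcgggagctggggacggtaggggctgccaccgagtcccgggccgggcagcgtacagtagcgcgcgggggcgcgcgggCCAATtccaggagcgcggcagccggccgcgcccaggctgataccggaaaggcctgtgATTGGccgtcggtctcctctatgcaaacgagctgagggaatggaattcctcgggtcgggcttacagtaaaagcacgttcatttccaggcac
The second form of the E2F site stood in the E2f7 window, with its first base 198 bases before the start, and in 0.895% of all 32851 promoters. E2f7 also held CCAAT boxes 46 and 14 bases before the start. The Tfdp1 window held the canonical E-box, present in 6.02% of all promoters, and neither form of the E2F site was found in the windows of Tfdp1, E2f2 and Runx1. The E2f2 window ends before the annotated gene begins at 136172394, and 0 GENCODE M21 transcripts of E2f2 held the bases after this RefSeq start. The Runx1 window held CCAAT boxes 148 and 91 bases before the start, against 33.8% of all promoters with at least 1. This start lies inside the annotated gene. RefSeq lists another at its outer end, whose window (chr16:92826075-92826324) overlaps an annotated exon and is not printed, and which held the canonical E-box and a CCAAT box. A further start each of E2f2 and Tfdp1 was left unprinted for the same reason. RefSeq promoters were matched for 91 of the 129 members. The 55 promoters of the 40 matched members that entered the tests had a median G+C content of 65.2%, the 69 promoters of the other 51 members 56.4% and all promoters 52.4%. The GC box GGGCGG was in 69.1% of the first, 46.4% of the second and 32.7% of all. Among the 55 and among all promoters, the cell cycle homology region TTTGAA was in 7.27% and 16.0%, the cAMP response element TGACGTCA in 1.82% and 1.55%, the AP-1 site TGANTCA in 3.64% and 6.75%, and the gamma-activated sequence TTCNNNGAA in 7.27% and 7.02%. For the CArG box of SRF and the NF-kappaB site, only 1 fixed string of letters each was searched, and other forms of these sites were not. These fixed strings were in none of the 55, and in 0.0609% and 0.14% of all. This search cannot show that the promoters lack such sites. A match is a description of letters only.

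Of the 129 members, 94 were above 0 in at least 1 library and 35 were listed at 0 in all 9. In 3 or more libraries, 58 members (45.0%) reached 1 FPKM, compared with 51.8% of the other 3348 protein-coding genes, and these 58 entered the tests. Among families of 5 or more members Homeobox had the lowest share, with 8 of 35 members tested (22.9%) and 18 listed at 0 throughout, among them Dlx1, Tlx1, Cdx1 and members of the reproductive Rhox and Obox clusters. In the other families 50 of 94 (53.2%) were tested. All members of ARID, E2F and TF_bZIP passed. Of the 58, 5 passed through their BM-MSC values alone, Dlx6, E2f2, Id4 and Nfe2 among them, and Dbx2 through its Graft P-SSC values alone, so these 6 had to differ between groups.

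P-SSC replicate 3 stood apart from the other P-SSC libraries. In it, 21 of the 58 tested members were more than 1 higher on the log2(FPKM + 1) scale than the mean of replicates 1 and 2, and 1 member, Id3, was more than 1 lower. Among them, Smad3 was at 7.48, 0.197 and 41.2 FPKM in P-SSC replicates 1 to 3, and Zbtb7a at 2.22, 2.20 and 31.5 FPKM. Across the 58 members its Pearson correlation with replicates 1 and 2 was 0.834 and 0.807, compared with 0.940 between those libraries. This describes genes that share a library. The same library held Sox10, a factor of neural crest and Schwann cells, at 8.43 FPKM, against 0.524 and 1.20 FPKM in the other P-SSC libraries. Its total of 19006388 fragments lay within the range of the others. The part of these values in the results was not tested. The counts of calls over all 58 members below are given with and without this library. Those of the lists are with all libraries unless stated. Because this library was singled out after its values were seen, calls gained without it are a description.

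**Figure D1:**
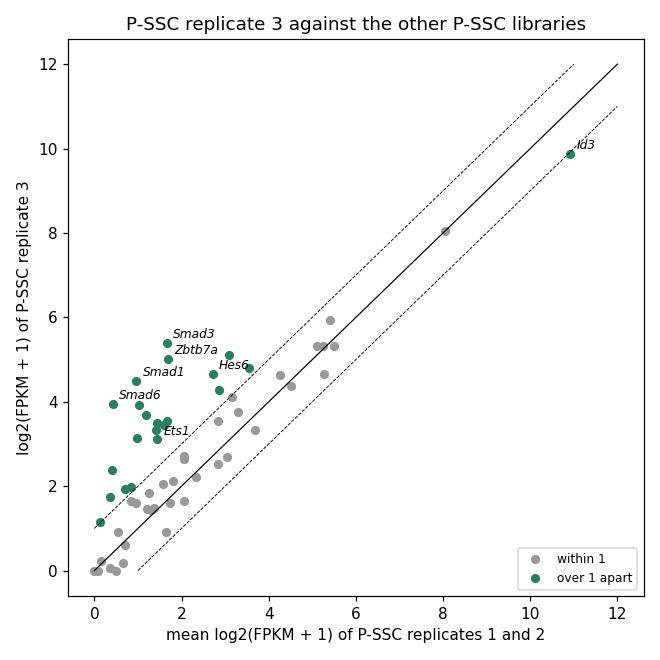
Each point is 1 of the 58 tested members, with the mean log2(FPKM + 1) of P-SSC replicates 1 and 2 on the horizontal axis and the value of P-SSC replicate 3 on the vertical axis. The solid line marks equal values and the dashed lines a difference of 1. Of the green points, 21 lie above the band and 1, Id3, lies below it.

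Id3 and Hmgb1 exceeded a mean of 100 FPKM over the 9 libraries and 19 reached 10 FPKM. The first, which blocks other bHLH proteins, averaged 1307 FPKM, and the second, an abundant protein that bends DNA, averaged 389 FPKM. Next came Cdc5l, a splicing factor with MYB repeats, at 45.5 FPKM, Rela, the p65 subunit of NF-kappaB, at 42.6 FPKM, and Tfdp1, the DP partner of E2F proteins, at 38.5 FPKM. Some of the more abundant members did not part the groups. Cdc5l averaged 49.4 ± 11.6, 42.7 ± 6.97 and 44.4 ± 5.46 FPKM in BM-MSCs, P-SSCs and Graft P-SSCs (SD, n = 3), and Nfx1, which binds promoters of immune genes, 22.9 ± 9.97, 21.2 ± 2.66 and 20.1 ± 2.21 FPKM. Neither passed the test in any comparison (lowest adjusted p 0.595 and 0.845).

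**Figure D2:**
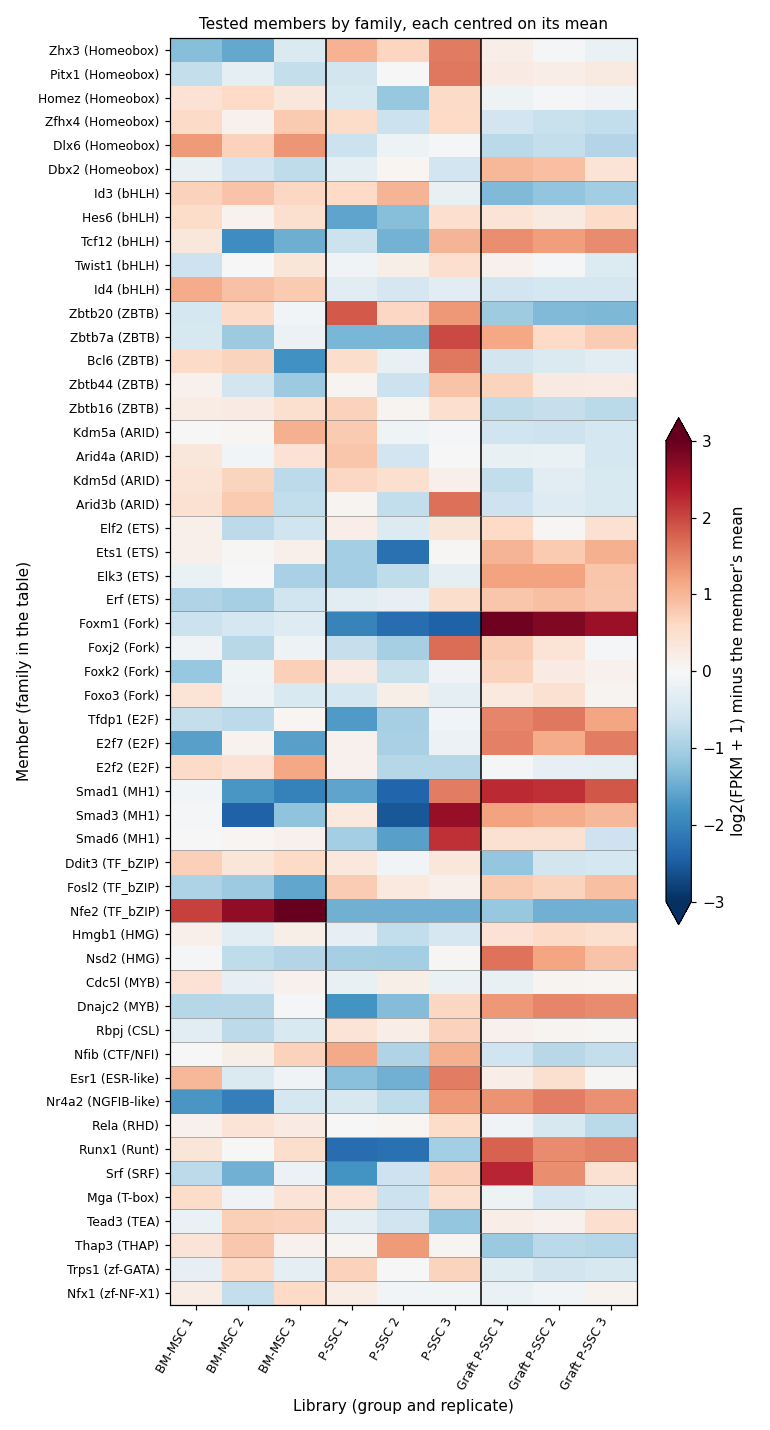
Rows are 53 of the 58 tested members, ordered by family, and columns the 9 libraries. Color gives log2(FPKM + 1) minus the mean of the member over all libraries, from blue (lower) to red (higher). Nfe2 is red in the BM-MSC columns, Foxm1, Runx1, Smad1 and Tfdp1 in the Graft P-SSC columns, and Smad3, Smad6 and Zbtb7a in the column of P-SSC replicate 3.

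At steady state, Runx1 and Foxm1 were lower in P-SSCs than in BM-MSCs, and Zhx3, Fosl2, Zbtb20 and Rbpj were higher. Runx1 averaged 8.61 FPKM in BM-MSCs and 1.35 FPKM in P-SSCs, and Foxm1 2.94 and 0.198 FPKM. In all, 12 of the 58 tested members were called by limma at a Benjamini-Hochberg adjusted p under 0.05 over all 1948 genes tested, 4 higher and 8 lower in P-SSCs. Of the 8 lower, 5 had passed the filter through their BM-MSC values alone, so their direction was fixed by it. Among all genes tested 24.2% were called, 9.80% higher and 14.4% lower, so the members as a set were near the background. The libraries of both groups did not overlap for 17 members, and for 32.1% of all genes. Their median difference was -0.09 on the log2(FPKM + 1) scale, and that of all genes -0.06. Without P-SSC replicate 3 the same 12 and 6 more were called (18, with 4 higher and 14 lower, against 30.4% of all genes). Esr1, Ets1, Hes6, Homez and Smad6 were among those added. When only the libraries of both groups entered the fit, 8 members and 16.6% of all genes were called.

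On day 3 after transplantation, Graft P-SSCs were higher than P-SSCs in Foxm1, Tfdp1 and E2f7, which act in the cell cycle, and in Runx1, Ets1 and Smad1, and lower in Zbtb20, Id3 and Ddit3. Foxm1 averaged 36.9 FPKM in Graft P-SSCs and 0.198 FPKM in P-SSCs, Runx1 21.8 and 1.35 FPKM, and Tfdp1 78.2 and 16.3 FPKM. Of the 58 members, 19 were called, 13 higher and 6 lower. Of all genes 34.1% were called, 22.6% higher and 11.5% lower. Libraries did not overlap for 32 members, against 50.6% of all genes. The median difference was 0.25 for the members and 0.26 for all genes tested. The split depended on scaling: the calls were 10 higher and 11 lower when libraries were scaled by the median of ratios, which moved the median of all genes to 0.02, and 9 higher and 13 lower after quantile normalization. The calls over all genes turned likewise, from 441 higher and 224 lower to 308 and 302 (31.3% called) with the median of ratios and to 312 and 355 (34.2%) after quantile normalization. No called member changed sign under any of the other settings, of which there were up to 19 for each. Without P-SSC replicate 3, 27 members were called, 22 higher and 5 lower, against 45.8% of all genes. Of the 19, 18 were kept and Zhx3 was lost, and among the 9 added were Esr1, Foxj2, Hes6, Nr4a2, Smad3, Smad6, Tcf12 and Zbtb7a.

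Graft P-SSCs and BM-MSCs are given side by side with the other comparisons, because they share their libraries. Here 28 of 58 members were called, 15 higher and 13 lower in Graft P-SSCs, with 41.9% of all genes called, 25.7% higher and 16.2% lower. Libraries did not overlap for 44 members and 64.5% of all genes. The median difference was 0.03 for the members and 0.28 for all genes. After scaling by the median of ratios it was -0.16 for the members and 0.08 for all genes. Without replicate 2 of the BM-MSCs 18 members and 32.3% of all genes were called, and without replicate 2 of the Graft P-SSCs 18 and 28.5%. Without P-SSC replicate 3, which adds to the spread but not to these means, the same 28 and 7 more were called (35, with 21 higher and 14 lower, against 53.3% of all genes). The 7 were Ets1, Hmgb1, Pitx1, Rbpj, Smad3 and Zbtb7a, higher in the graft, and Kdm5a, lower (adjusted p from 0.00344 for Zbtb7a to 0.0496 for Ets1). Over the 3 comparisons, 32 of the 58 members (55.2%) were called at least once and 26 never, beside 56.1% of all genes called at least once. Foxm1, Runx1, Zbtb20 and Zhx3 were called in all 3, with the call between the graft and BM-MSCs lost under 3 of 19 settings for Zbtb20 and 10 of 19 for Zhx3.

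**Figure D3:**
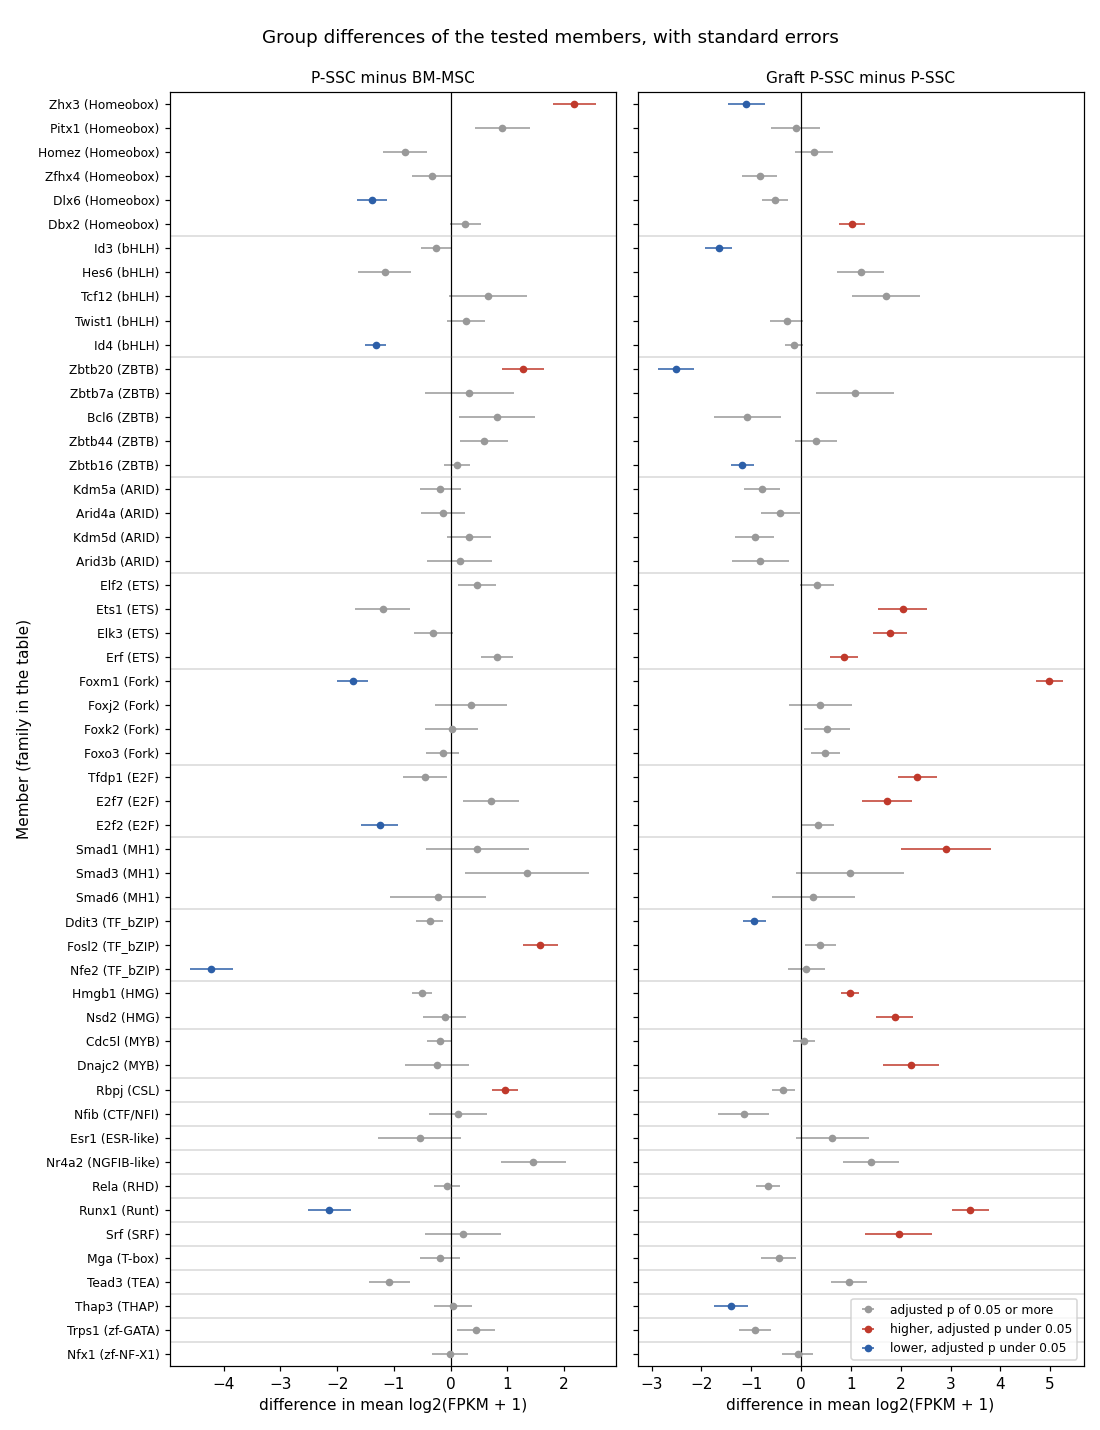
Points are the differences in mean log2(FPKM + 1) of 53 of the 58 tested members, P-SSC minus BM-MSC on the left and Graft P-SSC minus P-SSC on the right, with standard errors from limma as bars and members ordered by family. Red and blue mark members called higher and lower. Nfe2 lies farthest to the left in the left panel, and Foxm1 farthest to the right in the right panel.

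Foxm1, Tfdp1 and E2f7, factors of the cell cycle, were higher in the graft than in P-SSCs, and Foxm1 was lower in P-SSCs than in BM-MSCs. Foxm1 (chromosome 6, 128362967 to 128376146, GRCm38), a forkhead protein that drives genes of mitosis, was at 2.58, 2.92 and 3.31 FPKM in BM-MSCs, 0.407, 0.151 and 0.0353 FPKM in P-SSCs and 41.2, 37.5 and 31.9 FPKM in Graft P-SSCs. The 3 groups did not overlap. The difference was -1.72 ± 0.28 (log2(FPKM + 1) scale, SE) for P-SSC minus BM-MSC (adjusted p = 0.00127) and 4.99 ± 0.28 for Graft P-SSC minus P-SSC (adjusted p = 2.63e-06). Tfdp1 (chromosome 8, 13338751 to 13378448), whose promoter is shown above, was at 17.2, 16.3 and 29.7 FPKM in BM-MSCs, 8.15, 13.9 and 26.9 FPKM in P-SSCs and 80.6, 88.1 and 65.9 FPKM in Graft P-SSCs. The steady-state groups overlapped, and the graft libraries lay above both, by 2.33 ± 0.39 over P-SSCs (adjusted p = 0.00152). E2f7 (chromosome 10, 110745439 to 110787384), an E2F protein that represses its targets, was at 0, 2.32 and 0 FPKM in BM-MSCs, 2.37, 0.578 and 1.76 FPKM in P-SSCs and 7.78, 5.71 and 8.04 FPKM in Graft P-SSCs. Its graft values were again above the others, with a difference of 1.73 ± 0.50 from P-SSCs (adjusted p = 0.0237), which was not called under 8 of the 19 other settings. E2f2 (chromosome 4, 136172394 to 136196057), an activating E2F protein, was highest in BM-MSCs. It was at 1.72, 1.44 and 3.06 FPKM in BM-MSCs, 0.9998, 0 and 0 FPKM in P-SSCs and 0.788, 0.527 and 0.496 FPKM in Graft P-SSCs, with a difference of -1.25 ± 0.32 for P-SSC minus BM-MSC (adjusted p = 0.0186, not called under 3 of 18 settings) whose direction the filter fixed. The graft and P-SSC libraries overlapped (0.34 ± 0.32, adjusted p = 0.456). From the list of E2F, MYB and other cell cycle factors, 5 of 24 were members and 4 were tested. The 2 called between P-SSCs and BM-MSCs were Foxm1, lower in P-SSCs, and E2f2, whose direction the filter fixed, and the 3 called between the graft and P-SSCs were higher in the graft. The median differences were -0.85, with E2f2 among the 4, and 2.03. Beside these and the counts and medians of the lists below stand 24.2% and 34.1% of all genes called, with medians of -0.06 and 0.26. The fifth, Mycn, stayed at or below 0.599 FPKM.

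Runx1 and Ets1, which act in blood and vessel cells and are also made in skeletal cells, were higher in the graft than in P-SSCs, and had their lowest means in P-SSCs and their highest in the graft. Runx1 (chromosome 16, 92601466 to 92826149) was at 9.04, 6.63 and 10.2 FPKM in BM-MSCs, 0.585, 0.651 and 2.82 FPKM in P-SSCs and 25.2, 19.8 and 20.6 FPKM in Graft P-SSCs. No groups overlapped, with differences of -2.14 ± 0.38 (adjusted p = 0.00222) for P-SSC minus BM-MSC, 3.40 ± 0.38 (adjusted p = 0.00016) for Graft P-SSC minus P-SSC and 1.26 ± 0.38 (adjusted p = 0.0244) for Graft P-SSC minus BM-MSC, the last not called under 6 of 19 settings, among them without BM-MSC replicate 1 or 2 and without each graft library. Ets1 (chromosome 9, 32636221 to 32757820) was at 8.41, 7.69 and 8.42 FPKM in BM-MSCs, 3.17, 0.775 and 7.64 FPKM in P-SSCs and 16.2, 13.6 and 16.6 FPKM in Graft P-SSCs. It was higher in the graft than in P-SSCs (2.04 ± 0.49, adjusted p = 0.0105). Its difference between P-SSCs and BM-MSCs missed the threshold (adjusted p = 0.113) and passed it without P-SSC replicate 3 (-1.75, adjusted p = 0.00456). Against BM-MSCs the graft was not called (0.84 ± 0.49, adjusted p = 0.191, and 0.0496 without P-SSC replicate 3). The ETS repressors Elk3 and Erf were also higher in the graft than in P-SSCs. Elk3 averaged 15.5 ± 2.43 FPKM in the graft and 3.87 ± 1.26 FPKM in P-SSCs (1.78 ± 0.34, adjusted p = 0.00329). Erf averaged 2.95 ± 0.144 and 1.24 ± 0.776 FPKM (0.87 ± 0.28, adjusted p = 0.0376), and its call was lost under 13 of 18 settings. Elf2, the remaining ETS member tested, averaged 7.30, 10.3 and 12.9 FPKM in the 3 groups without passing the test.

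Nfe2 (chromosome 15, 103248212 to 103258403), a bZIP factor of red cell and platelet precursors, was at 10.3, 16.2 and 31.8 FPKM in BM-MSCs. It was listed at 0 in the 3 P-SSC libraries and in 2 Graft P-SSC libraries, and at 0.240 FPKM in the other. Its BM-MSC values alone carried it through the filter, so that the lower P-SSC values are a description. Of the blood cell markers given next, all but Csf1r were also highest in BM-MSCs. Hba-a2, an alpha globin gene and the 1 of 8 erythroid markers in the table, was at 748, 618 and 2200 FPKM in BM-MSCs, at most 20.2 FPKM in P-SSCs and at most 3.67 FPKM in Graft P-SSCs. The 4 of 18 haematopoietic markers in the table summed to 149 to 617 FPKM in BM-MSCs, 14.5 to 72.3 FPKM in P-SSCs and 31.6 to 89.9 FPKM in Graft P-SSCs, mostly from Lyz2, and Ptprc, which encodes the CD45 that the sort selected against, was at 0.326 to 1.35 FPKM in BM-MSCs, 0 in P-SSCs and 0.113 to 0.311 FPKM in Graft P-SSCs. Csf1r, the receptor of macrophages, was at 5.57 to 6.31 FPKM in Graft P-SSCs, 0.248 to 0.835 FPKM in P-SSCs and 0 to 2.68 FPKM in BM-MSCs. The part of such RNA in the values of Nfe2, Runx1 and Ets1 was not tested. In bulk samples such as these, fewer cells of a type and less RNA per cell cannot be told apart. Of the list of 39 blood and endothelial factors, 6 were members and 3 were tested. In P-SSCs 2 were lower than in BM-MSCs, Runx1 and the Nfe2 that had to differ, and in the graft 2 were higher than in P-SSCs, with medians of -2.14 and 2.04 that include Nfe2. The untested Erg, Sox7 and Lef1 stayed at or below 0.781 FPKM.

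**Figure D4:**
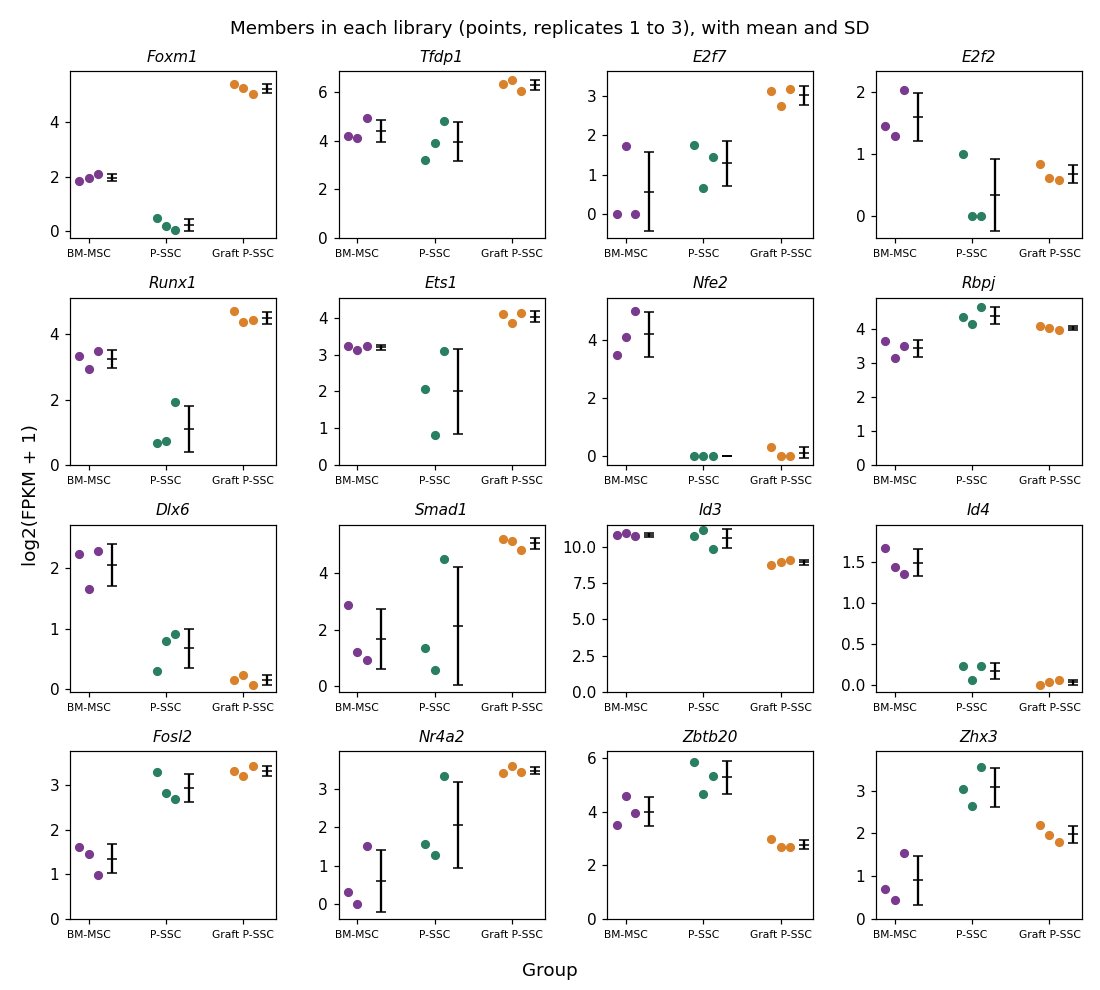
Panels show log2(FPKM + 1) of 16 members in every library, as points for replicates 1 to 3 from left to right in each group, with the mean and SD in black beside them. The vertical axis differs between panels. Foxm1 and Runx1 are lowest in P-SSCs and highest in Graft P-SSCs, Nfe2, Dlx6 and Id4 are highest in BM-MSCs, Zbtb20 and Zhx3 are highest in P-SSCs, and P-SSC replicate 3 lies far above the other P-SSC points for Smad1 and Nr4a2.

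Among factors of the skeleton, Dlx6 had its highest values in BM-MSCs, through which alone it passed the filter. Dlx6 (chromosome 6, 6863334 to 6868568), a homeobox protein of jaw and bone, was at 3.71, 2.14 and 3.85 FPKM in BM-MSCs, 0.237, 0.738 and 0.887 FPKM in P-SSCs and 0.106, 0.176 and 0.0521 FPKM in Graft P-SSCs. Its difference between P-SSCs and BM-MSCs was -1.38 ± 0.27, in the direction the filter fixed, while that between the graft and P-SSCs missed the threshold (-0.52 ± 0.27, adjusted p = 0.159). Pitx1, a factor of the hindlimb, averaged 1.51 ± 0.448, 4.72 ± 4.58 and 3.33 ± 0.106 FPKM and Twist1, a bHLH factor that holds back osteoblasts, 1.87 ± 0.943, 2.39 ± 0.734 and 1.76 ± 0.522 FPKM, in BM-MSCs, P-SSCs and Graft P-SSCs. Neither was called with all libraries. Without P-SSC replicate 3, Pitx1 was higher in the graft than in BM-MSCs, whose libraries lay below (0.80, adjusted p = 0.0284, against 0.208 with all libraries). Of 70 skeletal and patterning factors 13 were members and 6 were tested, of which 2 were lower in P-SSCs than in BM-MSCs, both after passing through BM-MSC values alone. By limma 0 were called between the graft and P-SSCs, and 0 had an unadjusted p under 0.05. Their median differences were 0.0033 and -0.13.

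In the Homeobox family as a whole the 8 tested members went different ways. Zhx3 (chromosome 2, 160748708 to 160872998), a zinc finger and homeobox protein that represses transcription, was at 0.633, 0.363 and 1.91 FPKM in BM-MSCs, 7.19, 5.22 and 10.7 FPKM in P-SSCs and 3.56, 2.88 and 2.46 FPKM in Graft P-SSCs. The groups did not overlap, and P-SSCs were above BM-MSCs by 2.18 ± 0.38 (adjusted p = 0.00195). The graft was below P-SSCs by the test (-1.10 ± 0.38, adjusted p = 0.0481), a call lost under 10 of 19 settings and without P-SSC replicate 3 (adjusted p = 0.0865). Dbx2, best known from the neural tube, averaged 0.195 ± 0.232, 0.439 ± 0.320 and 1.93 ± 0.601 FPKM in BM-MSCs, P-SSCs and Graft P-SSCs and passed the filter through its graft values alone (Graft P-SSC minus P-SSC 1.02 ± 0.27). Zfhx4 averaged 1.87 ± 0.640 FPKM in BM-MSCs and 0.270 ± 0.0671 FPKM in the graft, the one comparison in which it was called (-1.15 ± 0.35, adjusted p = 0.0263, lost under 6 of 18 settings, among them without BM-MSC replicate 1 or 3 and without each graft library). Homez was called in no comparison with all libraries. Of the 9 Homeobox members above 0 but not tested, none exceeded 2.01 FPKM in any library, a value reached by Pitx3 in P-SSC replicate 3.

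For the 3 tested SMAD proteins, listed as MH1, P-SSC replicate 3 lay above the other P-SSC libraries. Smad1 (chromosome 8, 79338395 to 79399518), which carries BMP signals, was at 6.34, 1.30 and 0.906 FPKM in BM-MSCs, 1.57, 0.479 and 21.6 FPKM in P-SSCs and 35.5, 34.5 and 27.0 FPKM in Graft P-SSCs. The graft libraries lay above all others, and the difference from P-SSCs was 2.91 ± 0.91 (adjusted p = 0.0329) with all libraries and 4.09 (adjusted p = 0.000222) without P-SSC replicate 3. The call was lost under 7 of 19 settings, among them without P-SSC replicate 1 or 2 and without each graft library, with an adjusted p of up to 0.112. Smad3, which carries TGF-beta signals, was at 5.77, 0.298 and 1.997 FPKM in BM-MSCs and 15.1, 14.0 and 12.9 FPKM in Graft P-SSCs, beside the P-SSC values given above. It was not called between the graft and P-SSCs with all libraries (0.99 ± 1.09, adjusted p = 0.526) and reached an adjusted p of 0.0497 without replicate 3. Against BM-MSCs the graft had an adjusted p of 0.113 with all libraries and 0.0235 without that one. Smad6, an inhibitor of BMP signals, was at 2.43, 2.53 and 2.70 FPKM in BM-MSCs, 0.664, 0.0923 and 14.4 FPKM in P-SSCs and 3.66, 3.61 and 1.19 FPKM in Graft P-SSCs. It was called without replicate 3 in both comparisons with P-SSCs (adjusted p = 0.0206 against BM-MSCs and 0.0128 for the graft). Smad9 stayed at or below 0.534 FPKM.

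Id3 and Id4 encode proteins that block other bHLH proteins. Id3 (chromosome 4, 136143497 to 136145755) was at 1763, 2006 and 1689 FPKM in BM-MSCs, 1679, 2230 and 936 FPKM in P-SSCs and 437, 482 and 537 FPKM in Graft P-SSCs. The steady-state groups overlapped, and all graft libraries were below them (Graft P-SSC minus P-SSC -1.65 ± 0.27, adjusted p = 0.00148). Id4 (chromosome 13, 48261228 to 48266026) was at 2.20, 1.71 and 1.57 FPKM in BM-MSCs, 0.171, 0.0439 and 0.178 FPKM in P-SSCs and 0, 0.0244 and 0.0434 FPKM in Graft P-SSCs. It passed the filter through its BM-MSC values alone (P-SSC minus BM-MSC -1.32 ± 0.18). Rbpj (chromosome 5, 53466152 to 53657362), the DNA-binding partner of Notch, was at 11.5, 7.92 and 10.2 FPKM in BM-MSCs, 19.6, 16.7 and 24.0 FPKM in P-SSCs and 15.9, 15.4 and 14.8 FPKM in Graft P-SSCs. P-SSCs were above BM-MSCs in every library (0.96 ± 0.23, adjusted p = 0.0134). The graft also lay above BM-MSCs (0.60 ± 0.23), with an adjusted p of 0.0609 and, without P-SSC replicate 3, 0.0334. Hes6, a bHLH protein that inhibits the Notch effector HES1, was at 25.04, 18.2 and 23.8 FPKM in BM-MSCs, 4.93, 6.34 and 24.4 FPKM in P-SSCs and 22.6, 20.6 and 25.1 FPKM in Graft P-SSCs. Its P-SSC replicate 3 sat with the other groups, and without that library it was called lower in P-SSCs than in BM-MSCs (-1.81, adjusted p = 0.000272) and higher in the graft than in P-SSCs (1.84, adjusted p = 0.000159). Tead3, which binds DNA for the Hippo pathway, averaged 4.80 ± 1.83, 1.72 ± 0.790 and 4.16 ± 0.715 FPKM in BM-MSCs, P-SSCs and Graft P-SSCs and missed the threshold (adjusted p = 0.0583 and 0.0684). From 30 TGF-beta, WNT, Hippo and Notch effectors 12 were members and 8 were tested. In P-SSC minus BM-MSC 1 was higher, Rbpj, and 1 lower, Id4, whose direction the filter fixed, and likewise 1 each way in Graft P-SSC minus P-SSC, with medians of -0.24 and 0.61. Hes6 and Smad6 joined the first, and Hes6, Smad3 and Smad6 the second, without P-SSC replicate 3. Tcf12, a bHLH partner of many lineage factors, averaged 2.502 ± 3.03, 4.61 ± 4.90 and 13.2 ± 0.834 FPKM in BM-MSCs, P-SSCs and Graft P-SSCs and was called in Graft P-SSC minus BM-MSC (2.35 ± 0.69, adjusted p = 0.0218), a call lost under 6 of 19 settings, among them without BM-MSC replicate 2 or 3 and without each graft library.

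Of the 20 early response factors 3 were members, and all were tested. Fosl2 (chromosome 5, 32135801 to 32157842), an AP-1 subunit that acts in bone cells, was at 2.08, 1.73 and 0.982 FPKM in BM-MSCs, 8.76, 6.07 and 5.44 FPKM in P-SSCs and 8.98, 8.27 and 9.84 FPKM in Graft P-SSCs. Both periosteal groups were above BM-MSCs in every library (P-SSC minus BM-MSC 1.58 ± 0.30, adjusted p = 0.00379), and overlapped with each other. Nr4a2 (chromosome 2, 57106830 to 57124003), an orphan nuclear receptor, was at 0.232, 0 and 1.84 FPKM in BM-MSCs, 1.96, 1.42 and 9.09 FPKM in P-SSCs and 9.54, 10.9 and 9.69 FPKM in Graft P-SSCs. It passed in Graft P-SSC minus BM-MSC (2.86 ± 0.57, adjusted p = 0.00345), and in Graft P-SSC minus P-SSC without P-SSC replicate 3 only (adjusted p = 0.0861 with it and 0.00341 without). Srf (chromosome 17, 46548329 to 46556175), which drives actin and early response genes, was at 3.25, 1.71 and 5.501 FPKM in BM-MSCs, 1.10, 3.73 and 10.8 FPKM in P-SSCs and 34.5, 18.3 and 9.02 FPKM in Graft P-SSCs. It was called higher in the graft than in P-SSCs (1.96 ± 0.67, adjusted p = 0.0464) although the libraries overlapped, and the call was lost under 15 of 19 settings. The list had 1 call higher in P-SSCs than in BM-MSCs and 1 higher in the graft than in P-SSCs, with medians of 1.46 and 1.41.

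Ddit3 was lower in the graft than in both steady-state groups. Ddit3 (chromosome 10, 127290774 to 127296288), the CHOP protein of the unfolded protein response, was at 50.7, 39.96 and 46.7 FPKM in BM-MSCs, 38.3, 28.9 and 39.1 FPKM in P-SSCs and 13.05, 20.7 and 20.9 FPKM in Graft P-SSCs. All graft libraries were below the others (Graft P-SSC minus P-SSC -0.94 ± 0.23, adjusted p = 0.0126, and 0.0540 without Graft P-SSC replicate 1). Foxo3, a forkhead factor of oxidative stress and the second of 35 stress factors that were tested, averaged 0.806 ± 0.563, 0.617 ± 0.403 and 1.24 ± 0.276 FPKM and was not called. The medians of both genes were -0.26 for P-SSC minus BM-MSC and -0.22 for Graft P-SSC minus P-SSC. Rela was at 45.4, 54.8 and 49.1 FPKM in BM-MSCs, 40.6, 42.8 and 60.6 FPKM in P-SSCs and 37.9, 29.3 and 23.0 FPKM in Graft P-SSCs. It was called lower in the graft than in BM-MSCs (-0.73 ± 0.23, adjusted p = 0.0306, lost under 5 of 19 settings, among them the replicate block and without BM-MSC or graft replicate 2 or 3), and missed the threshold against P-SSCs (adjusted p = 0.0515).

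Zbtb20 was the ZBTB member with the largest difference. Zbtb20 (chromosome 16, 42875881 to 43642602), a repressor that acts in cartilage and liver, was at 10.3, 23.1 and 14.3 FPKM in BM-MSCs, 57.1, 24.0 and 39.3 FPKM in P-SSCs and 6.80, 5.44 and 5.37 FPKM in Graft P-SSCs. P-SSCs were above BM-MSCs (1.27 ± 0.36, adjusted p = 0.0301), with 24.0 and 23.1 FPKM as the nearest libraries. This call was lost under 6 of 19 settings, among them the replicate block (adjusted p = 0.0622) and without BM-MSC replicate 1 or 3 or P-SSC replicate 1. The graft was below P-SSCs by more (-2.51 ± 0.36, adjusted p = 0.000713). Zbtb16, known as PLZF and as a factor of progenitor cells, averaged 1.36 ± 0.227, 1.58 ± 0.535 and 0.121 ± 0.0497 FPKM in BM-MSCs, P-SSCs and Graft P-SSCs and was lower in the graft than in P-SSCs (-1.18 ± 0.23, adjusted p = 0.00362). Bcl6 averaged 6.34 ± 4.75, 10.5 ± 7.19 and 3.80 ± 0.332 FPKM and was not called. Zbtb7a, a repressor of fetal globin and other genes, was called higher in the graft than in P-SSCs without P-SSC replicate 3 only (2.20, adjusted p = 0.00054, against 1.08 and 0.325 with it), and the same held against BM-MSCs (1.41, adjusted p = 0.00344 without and 0.173 with it). Thap3, of the THAP zinc finger family, was at 24.5, 57.5 and 24.2 FPKM in P-SSCs and 10.1, 12.6 and 12.2 FPKM in Graft P-SSCs, and was lower in the graft (-1.41 ± 0.34, adjusted p = 0.0106).

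Hmgb1, Nsd2 and Dnajc2 were higher in the graft than in P-SSCs, and of the 4 ARID members limma called 0 in each comparison. Hmgb1 (chromosome 5, 149046702 to 149184489) was at 412, 300 and 423 FPKM in BM-MSCs, 313, 222 and 262 FPKM in P-SSCs and 499, 550 and 521 FPKM in Graft P-SSCs. Graft and P-SSC libraries did not overlap (0.99 ± 0.18, adjusted p = 0.00237). Against BM-MSCs its adjusted p was 0.0542 and, without P-SSC replicate 3, 0.0398. Nsd2 averaged 0.470 ± 0.660 FPKM in P-SSCs and 4.21 ± 1.43 FPKM in the graft (1.88 ± 0.38, adjusted p = 0.00423). Dnajc2 was at 0.661, 1.35 and 7.90 FPKM in P-SSCs and 13.1, 14.8 and 14.4 FPKM in the graft (2.21 ± 0.57, adjusted p = 0.0141, and 0.0507 without P-SSC replicate 1). Kdm5a averaged 13.3 ± 6.47, 11.4 ± 4.61 and 5.92 ± 0.225 FPKM and Arid4a, part of a histone deacetylase complex, 4.44 ± 0.982, 4.32 ± 2.63 and 2.71 ± 0.466 FPKM in BM-MSCs, P-SSCs and Graft P-SSCs. The graft libraries of Kdm5a lay below all others, yet its adjusted p was 0.128 against P-SSCs and 0.0578 against BM-MSCs, and both passed with the median of ratios (0.0445 and 0.0261). The second also passed without P-SSC replicate 3 (0.0398). At an unadjusted p under 0.05 stood 1 ARID member against P-SSCs, Kdm5d, and 1 against BM-MSCs, Kdm5a.

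Of the 48 nuclear receptors 5 were members, and Esr1 and Nr4a2 were tested. Esr1, the estrogen receptor alpha, was at 9.45, 2.88 and 3.89 FPKM in BM-MSCs, 1.19, 0.921 and 14.2 FPKM in P-SSCs and 5.07, 6.26 and 4.37 FPKM in Graft P-SSCs. With all libraries limma called 0 nuclear receptors in both comparisons with P-SSCs (medians 0.46 and 1.02), and 1, Nr4a2, had an unadjusted p under 0.05 in each. Without P-SSC replicate 3, Esr1 was lower in P-SSCs than in BM-MSCs (-1.51, adjusted p = 0.0224) and higher in the graft than in P-SSCs (1.59, adjusted p = 0.0116). Rxrg, a retinoid X receptor that was not tested, was listed at 0 in BM-MSCs, at 2.79, 1.12 and 0.880 FPKM in P-SSCs and at 0.244, 0.405 and 0.240 FPKM in Graft P-SSCs. The 18 marrow stromal and adipogenic factors and the 23 clock factors held no member, and these genes were not analysed here.

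The remaining members were low. Of the 36 members above 0 that were not tested, Sox10 reached the highest value, 8.43 FPKM in P-SSC replicate 3. Hmga2, an architectural protein of fetal and dividing cells, was listed at 0 in all 6 steady-state libraries and at 0.575, 0.374 and 0.857 FPKM in Graft P-SSCs. Irx2, a homeobox factor, was at 0.446, 1.11 and 0.768 FPKM in the graft, listed at 0 in P-SSCs and above 0 in 1 BM-MSC library, at 0.350 FPKM. Satb1, a CUT family protein, was at 0.833, 0.731 and 0.154 FPKM in BM-MSCs and at most 0.195 FPKM elsewhere. The Y-linked Kdm5d was above 0 in all 9 libraries, from 0.649 to 3.49 FPKM. Of the tested members of single-member families not yet given, Nfib, Trps1 and Mga were called in no comparison, with Nfib at 9.29 ± 2.57, 12.2 ± 7.68 and 4.001 ± 0.411 FPKM in BM-MSCs, P-SSCs and Graft P-SSCs.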

How the data were processed

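The labels give 3 groups of 3 libraries. The authors sorted the cells, purified poly(A) RNA and sequenced it. The submitters' processing notes name CASAVA, fastp, STAR 2.6.1d, featureCounts 1.5.0-p3 and GRCm38, and whether counting used the strand is not given in the sources used here. Of the 58 tested members, 23 shared exon bases with another gene, 19 of them with one on the opposite strand. Among called members, Elk3 shared 6.9% of its exon bases with Cdk17 on that strand, and Zhx3 2.9% with Plcg1. The effect on the values was not tested. The deposited values are FPKM, without further normalization between libraries. Fragments of genes with several transcripts could not be worked back, so a test for counts was not made and no interval for counting error is given.

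Genes at 1 FPKM or more in 3 or more libraries (1948) were compared on log2(FPKM + 1) with limma 3.58.1 (R 4.3.3, eBayes with trend) in 1 fit of all libraries, with Benjamini-Hochberg adjustment over all genes tested and calls at an adjusted p under 0.05. Differences on this scale understate changes of low genes. Sequences and motifs were read with Python 3.11.15 from RefSeq promoters, and exon overlaps from GENCODE M21. Alternatives changed the pseudocount (0.1 or 0.5), the filter (none or 5 FPKM), the scaling, the trend and the groups fitted, added a replicate block, and left out each library in turn.

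The members and the gene lists were chosen with earlier results of these data known. Members were named if called without overlap and at 5 FPKM or more on average in the higher group (the first 10 each way in each comparison), if among the 2 most abundant of a family with 3 or more tested, or if tested and on a list. Others, such as Erf, Nsd2, Dbx2, Zfhx4, Zbtb16, Cdc5l, Nfx1, Nfib, Bcl6, Homez, Trps1, Mga, Sox10, Pitx3, Rxrg, Hmga2, Irx2, Satb1 and Kdm5d, were named after their values were seen. Some members are not reported here.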

Additional observations from a re-analysis of the deposited data

How the results depend on the processing

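Of the called members, 8 of 12 in P-SSC minus BM-MSC, 11 of 19 in Graft P-SSC minus P-SSC and 17 of 28 in Graft P-SSC minus BM-MSC were called under every other setting that gave them a value, up to 19 each. None changed sign. The numbers of members called when 1 library was left out ranged from 11 to 18, from 13 to 27 and from 18 to 35 in these comparisons, beside 20.5% to 30.4%, 23.1% to 45.8% and 28.5% to 53.3% of all genes. The highest values came without P-SSC replicate 3, and the lowest of the third, 18, without BM-MSC replicate 2 and without Graft P-SSC replicate 2 (28 with all libraries). The cause was not tested, beyond there being fewer libraries in the fit. Over all values of the named members under other settings, 2137 of 2304 kept their side of the threshold and direction, 108 lost the call and 59 gained one.

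Replicate numbers are shared between groups by title. The sample descriptions carry numbers of their own, such as BM2BM4 and P4, whose meaning is not given, and pairs by these were not tested. Libraries with the same title number did not deviate together (correlations of their deviations from group means from -0.43 to 0.13 over the tested genes), so the title numbers were not treated as pairs. With the replicate number as a block, 11, 16 and 24 members were called, beside 22.6%, 31.9% and 38.8% of all genes. Where 2 libraries of a group remain, the spread is taken from all groups. Depth limits what the low members can show: 1 to 3 fragments set the smallest values, and listing at 0 does not show absence.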
